A study of Mus musculus with 6 samples.

Results

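The Krüppel-like factors (KLFs) are DNA-binding proteins that share 3 zinc fingers at the carboxyl end, read GC-rich and CACCC-type sequences, and differ in the part that activates or represses transcription. In macrophages and endothelium KLF2 and KLF4 are known as brakes on inflammatory activation, KLF6 as a factor that promotes it, and KLF9 to KLF11, KLF13 and KLF16 as repressors that recruit SIN3A. The 10 members described here, Klf2, Klf3, Klf4, Klf6, Klf7, Klf9, Klf10, Klf11, Klf13 and Klf16, were taken by symbol from a table of 21958 genes. The table lists 17 KLF genes in all, and each of the 10 symbols stands on a single row.

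RNA was sequenced from RAW264.7, a mouse macrophage-like line that Abelson virus transformed. All 6 libraries came from cells given lipopolysaccharide (LPS), a bacterial cell wall component that macrophages sense through TLR4. In 3 of them the cells had LPS alone, and in the other 3 they were co-cultured with BMSCs (commonly, bone marrow stromal cells) and also given LPS. No unstimulated group was labelled, so none of the differences below is a response to LPS itself. The labels state no LPS dose, time or cell contact and no species for the BMSCs, and they name no scaffold or bFGF for these samples although the study's design text does. The labels call the libraries biological replicates. The title of LPS replicate 3 names the line RAW264.9 and its cell line tag RAW264.7.

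Depth was 17716460 to 22539884 gene counts per library. Replicates differed more within the co-culture group (a chi-square of counts, divided by its degrees of freedom, of 5.16 to 26.8 for pairs of libraries, highest for the pairs with replicate 1) than within the LPS group (1.71 to 2.11). The 8 macrophage markers were all detected, with a summed level of 13500 to 14000 CPM, a count scaled to library size, with LPS and 20000 to 22600 CPM in co-culture. Lyz2 made most of that sum (10960 ± 230 against 17950 ± 1300 CPM, mean ± SD, n = 3 each). Cd68, Spi1 and Fcgr3 were called higher, like Lyz2 (log2 fold changes of 0.56, 0.64, 1.08 and 0.71 in the test described below). Ptprc was lower (305.4 ± 3.78 against 160.5 ± 25.2 CPM, log2 -0.93), and Adgre1, Csf1r and Itgam did not pass (log2 fold changes of 0.01, 0.01 and 0.03). Thus 4 of the 8 were higher and 1 lower, against 37.5% and 38.0% of all tested genes. With trends of count on gene length and GC content removed, Cd68 was at -0.26, Spi1 at 0.13 and Fcgr3 at 0.61. Lyz2 was then at 0.125 (0.015 with the length trend alone removed) and Ptprc at 0.02. Of 12 stromal markers, 6 including Col1a2, Col3a1, Thy1 and Cxcl12 had no count in any library. Acta2 made most of the stromal sum of 12.4 to 14.0 CPM with LPS and 19.1 to 22.3 CPM in co-culture. Of the 3 stromal markers tested, Acta2 was called higher (log2 0.85) and Lum lower (-1.41, from 7 to 26 reads a library). Dcn was not called (-0.03). Once both trends were taken out, Acta2 and Dcn were called higher (0.488 and 0.583) and Lum lower (-1.355). The 5 endothelial markers summed to 2.55 to 3.19 and 5.08 to 5.97 CPM, and 5 markers of other blood cells to at most 0.448 CPM. Most of the endothelial rise was Pecam1 (1.22 against 3.65 CPM on average, log2 1.57, called higher). Cdh5 (-0.79) and Vwf (0.54) did not pass, and Kdr and Tek had too few reads to test. With the length and GC trends removed, Pecam1 and Vwf were called higher (1.69 and 0.815) and Cdh5 lower (-0.95). The part of these markers' shifts in the results below was not tested.

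The starts of 3 of the 6 called members are shown first: Klf2 and Klf4, the 2 called higher in co-culture, and Klf9, which fell most. Those of Klf7, Klf10 and Klf13, also called lower, are not shown. RefSeq windows on GRCm38.p6 from 250 bases before to 50 after the start site were at hand for 8 of the 10 members. In the sequences below, capitals mark a CACCC box (CCACCC), a GC box (GGGCGG), a half-site for CREB (TGACGT) or a MEF2 site, on either strand, and adjoining matches can overlap. They are written 5′ to 3′ on the gene's strand.
Klf2, chr8:72318812-72319111, plus strand: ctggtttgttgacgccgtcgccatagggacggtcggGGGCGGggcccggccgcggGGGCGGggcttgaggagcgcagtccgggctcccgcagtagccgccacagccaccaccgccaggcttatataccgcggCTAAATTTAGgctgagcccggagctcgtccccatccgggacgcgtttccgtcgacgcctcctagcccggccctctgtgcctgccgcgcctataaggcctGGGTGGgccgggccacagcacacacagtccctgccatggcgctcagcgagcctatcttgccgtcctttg
Klf4, chr4:55532426-55532725, minus strand: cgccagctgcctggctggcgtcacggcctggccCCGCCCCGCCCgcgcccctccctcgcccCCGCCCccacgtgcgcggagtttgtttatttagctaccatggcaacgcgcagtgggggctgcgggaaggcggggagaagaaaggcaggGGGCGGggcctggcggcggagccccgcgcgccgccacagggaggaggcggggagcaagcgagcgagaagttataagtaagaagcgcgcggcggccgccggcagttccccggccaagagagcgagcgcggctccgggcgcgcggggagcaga
Klf9, chr19:23140976-23141275, plus strand: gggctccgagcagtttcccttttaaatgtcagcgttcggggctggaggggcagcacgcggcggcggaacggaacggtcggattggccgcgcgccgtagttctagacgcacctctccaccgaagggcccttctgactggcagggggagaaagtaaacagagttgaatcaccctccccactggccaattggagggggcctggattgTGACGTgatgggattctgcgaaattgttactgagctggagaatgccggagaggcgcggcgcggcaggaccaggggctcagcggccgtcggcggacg

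A GC box lay in 7 of the 8 windows, Klf9 being the one without, against 35.7% of all 32851 promoter windows. Klf2 held the only MEF2 match, CTAAATTTAG, which starts 118 bases before the start site. MEF2 factors act on KLF2 downstream of the kinase ERK5 in endothelium, and 3.19% of all windows hold such a match. A CACCC box, the element KLF proteins read, lay in 4 of 8 windows (Klf2, Klf3, Klf7 and Klf13), against 31.5% of all. The CREB half-site lay in Klf9 and Klf13, against 7.51% of all; Klf9 alone also held an AP-1 match (TGANTCA), against 7.81%. No member window held a full CREB site (TGACGTCA, 1.79% of all) or TATAAA (13.6% of all). These are matches of letters, and binding was not measured.

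In co-culture Klf2 and Klf4 were higher, Klf9 and Klf10 were lower, and Klf7 and Klf13 were lower by smaller amounts, while Klf3, Klf6, Klf11 and Klf16 did not pass the test. All 10 members had enough counts to be tested (26 to 5663 per library). Counts were scaled by TMM, which sets the median gene near no change, tested with edgeR's quasi-likelihood test and called at an adjusted p of 0.05 over all 11103 genes tested. Of the members, 2 were called higher and 4 lower, and those 6 of 10 compare with 75.5% of all tested genes (37.5% higher, 38.0% lower). The members' median absolute log2 fold change was 0.39, against 0.52 for all tested genes. Thus the family was called no more often than genes at large, and its members moved in both directions. These are bulk libraries, in which fewer cells of a type and less RNA per cell cannot be told apart.

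Klf2, which in mouse and human restrains inflammatory gene expression in monocytes and endothelium and keeps T cells quiescent, had the largest rise of the members. Its level was 12.42, 12.47 and 13.03 CPM in LPS replicates 1 to 3 and 34.42, 28.27 and 27.19 CPM in co-culture replicates 1 to 3. The groups did not overlap, and co-culture replicate 1 was the highest. The rise was 2.37-fold (log2 1.25, SE 0.10, adjusted p 4.05e-06 in edgeR's test), and 10.3% of tested genes had a larger change in either direction. Klf2 is short and GC-rich (1847 bases, 61.6% GC), and with trends of count on gene length and GC content removed in each library its log2 fold change was 0.51 (adjusted p 6.68e-05 in the same test).

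Klf4, a factor of monocyte differentiation and of alternative macrophage activation in mouse, rose from a low level. It stood at 2.81, 2.43 and 2.84 CPM with LPS and at 4.38, 4.41 and 4.48 CPM in co-culture, without overlap. The change was 1.64-fold (log2 0.71, SE 0.14, adjusted p 0.000865 in edgeR's test). With the length and GC trends removed, its log2 fold change was 0.33 and the call was lost (adjusted p 0.0559 in the same test).

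Klf6 and Klf7 belong to the same activator branch of the family. Klf6, an early response factor that promotes inflammatory genes in macrophages, was the most abundant KLF by far. Its level was 241.8, 245.0 and 236.6 CPM with LPS and 215.5, 223.9 and 254.0 CPM in co-culture, and the groups overlapped (log2 -0.06, 95% interval -0.21 to 0.09, adjusted p 0.425 in edgeR's test). The sign for Klf6 depended on the setting. It was called lower on library totals alone (log2 -0.24, adjusted p 0.0142 in edgeR's test), where the median of all tested genes also lay at -0.177. On log2(FPKM + 1) and log2(FPKM + 0.1) it was called lower too (-0.24 on each, adjusted p 0.0144 and 0.0159 in limma's test). There the medians of all tested genes were -0.144 and -0.165. In edgeR's test it was called lower without co-culture replicate 3 (-0.13, adjusted p 0.0435) and higher with the length and GC trends removed (0.25, adjusted p 0.000371). Klf7, known from neuronal development, was at 48.63 to 52.26 CPM with LPS and 38.56 to 41.75 CPM in co-culture. That 1.26-fold fall passed (log2 -0.34, SE 0.07, adjusted p 0.00106 in edgeR's test), but for this long gene of 8131 bases the value was 0.04 with the length trend removed, and 0.15 with the length and GC trends removed (adjusted p 0.0351 in edgeR's test). Its direction thus depended on that correction.

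Klf9, a repressor that glucocorticoids and thyroid hormone induce, fell most among the members. Each LPS library gave 11.99 CPM, from 226, 252 and 287 reads, and the co-culture libraries gave 5.68, 5.94 and 6.35 CPM. The groups did not overlap. Counts of 226 to 287 reads carry a counting error well above the spread of the LPS values, so that spread understates the uncertainty. The fall was 2.00-fold (log2 -1.0, SE 0.10, adjusted p 8.71e-06 in edgeR's test), and 18.5% of tested genes had a larger change. It remained at -0.87 with the length and GC trends removed.

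Klf10 and Klf11 are the TGF-beta-inducible early genes, paired repressors that recruit SIN3A, and they did not move alike. Klf10 was at 28.02, 24.60 and 28.61 CPM with LPS and at 12.65, 17.77 and 15.62 CPM in co-culture. It was 1.77-fold lower, without overlap (log2 -0.82, SE 0.12, adjusted p 0.000155 in edgeR's test), and its value was -0.74 with the length and GC trends removed. Klf11 was the scarcest member, with 26 to 38 reads a library. It stood at 1.38, 1.38 and 1.34 CPM with LPS and 1.64, 1.95 and 1.92 CPM in co-culture, which do not overlap, but it did not pass (log2 0.43, SE 0.19, unadjusted p 0.048, adjusted p 0.0624 in edgeR's test). Groups did not overlap for 7 of the 10 members, against 80.2% of all tested genes.

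Klf13 and Klf16 complete the SIN3A-binding branch. Klf13, first described as an activator of the chemokine gene CCL5 in human T cells, fell 1.28-fold from 39.97 to 40.77 CPM with LPS to 30.34 to 32.93 CPM in co-culture (log2 -0.35, SE 0.07, adjusted p 0.000735 in edgeR's test). Its call was lost with the length trend alone removed (log2 -0.01, adjusted p 0.903) and was kept with length and GC removed (-0.31, 0.000389). Klf16, a repressor described at dopamine receptor genes, stood at 24.62, 23.75 and 22.72 CPM with LPS and 25.41, 25.30 and 21.59 CPM in co-culture, which overlapped (log2 0.03, 95% interval -0.17 to 0.22, adjusted p 0.792 in edgeR's test). For Klf16, which is short and has 60.4% GC, the value turned to -0.50 with the length and GC trends removed (adjusted p 5.4e-05) and to -0.27 with the length trend alone (0.0101, both in edgeR's test).

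Klf3 is the CtBP-binding repressor of the family that limits B cell and fat cell programmes in mouse. It stood at 4.09, 5.57 and 4.14 CPM with LPS and 3.79, 4.15 and 3.68 CPM in co-culture. The groups overlapped, with LPS replicate 2 above the rest, and the difference did not pass (log2 -0.25, 95% interval -0.60 to 0.11, adjusted p 0.182 in edgeR's test). On library totals it was called lower (-0.43, adjusted p 0.0344), and with the length and GC trends removed its value was 0.34 (0.0855), its 11243 bases being the longest of the 10.

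**Figure D1:**
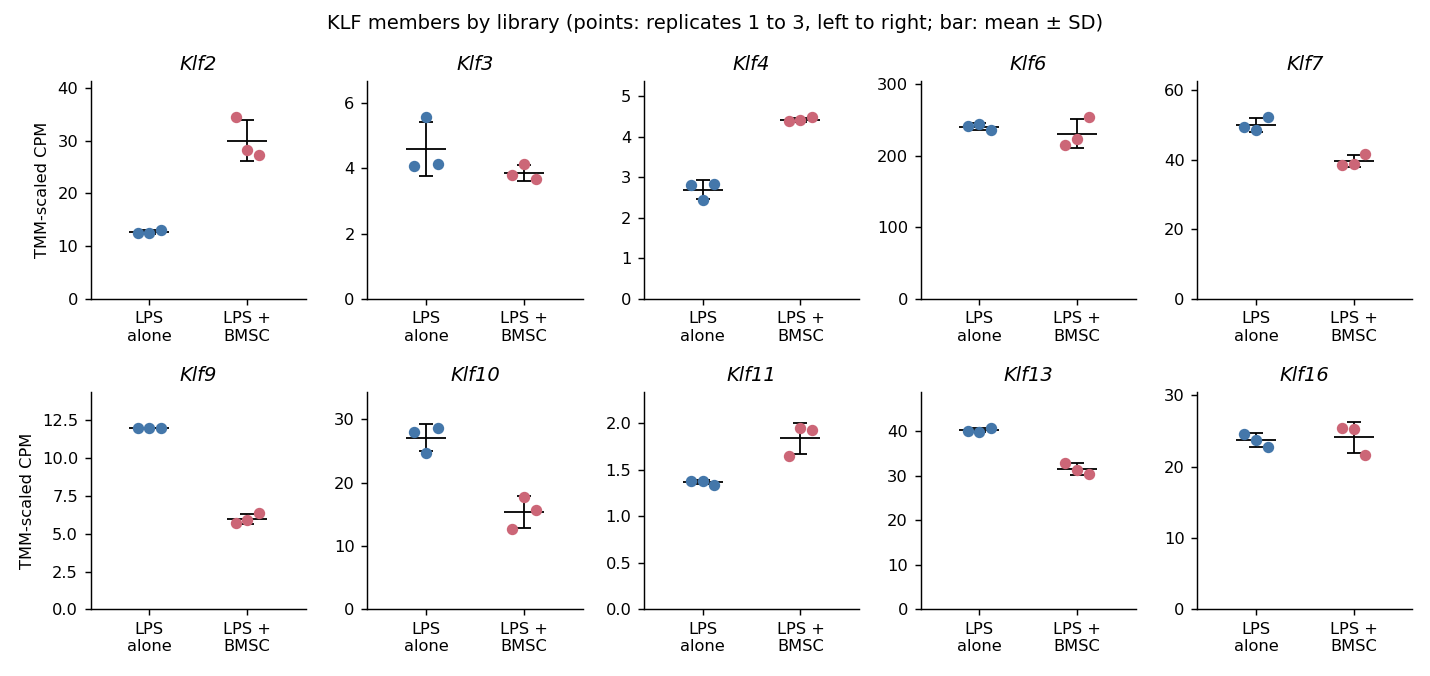
Level of each of the 10 KLF genes in TMM-scaled CPM (vertical axes, from 0) in the 3 LPS libraries and the 3 co-culture libraries; points are libraries and bars the mean ± SD. Klf2 and Klf4 sit higher and Klf7, Klf9, Klf10 and Klf13 lower in co-culture without overlap, while the groups of Klf3, Klf6 and Klf16 overlap. Klf11 is also higher without overlap but did not pass the test.

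**Figure D2:**
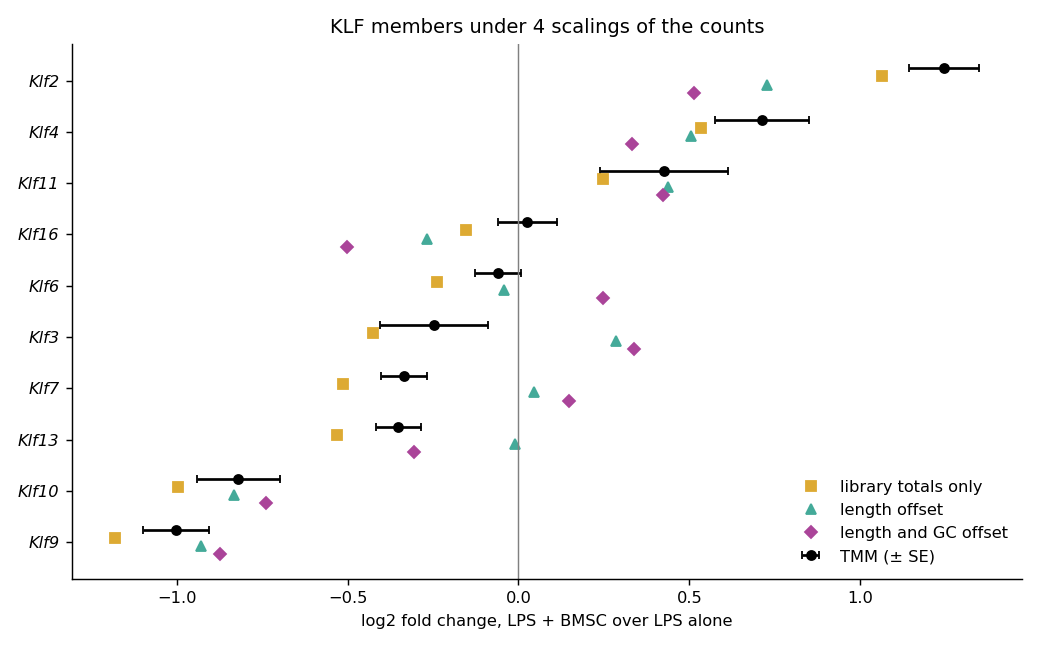
Log2 fold change of each member, co-culture over LPS alone, under TMM (black, with SE), library totals, a length offset and a length and GC offset. Klf2, Klf4 and Klf11 lie above 0 and Klf9, Klf10 and Klf13 below 0 in all 4, whereas Klf3, Klf6, Klf7 and Klf16 lie on both sides. Klf11 was called in none of the 4, and Klf13 is at only -0.01, not called, with the length offset.

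The direction and call of Klf2, Klf9 and Klf10 were kept in all 16 other fits that were run, with log2 fold changes of 0.51 to 1.32, -1.18 to -0.75 and -1.0 to -0.69. Klf4 kept its call in 15 of 16 and Klf13 in 15 of 16. Under the length and GC offset 3 members were called higher (Klf2, Klf6 and Klf7) and 4 lower (Klf9, Klf10, Klf13 and Klf16), against 71.3% of all genes tested there.

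Compared per length, in the authors' FPKM, the family was dominated by Klf6 in both groups. Klf6 held 58.3% ± 0.924 of the FPKM summed over the 17 KLF rows with LPS and 55.4% ± 3.34 in co-culture (mean ± SD, n = 3 each). Klf2 moved from 7.26% ± 0.234 to 17.1% ± 2.53, with 19.9%, 16.4% and 15% in co-culture replicates 1 to 3. Klf10 went from 6.88% ± 0.55 to 3.87% ± 0.661 and Klf9 from 2.64% ± 0.0157 to 1.31% ± 0.0432. The share of Klf4 was 0.937% ± 0.08 with LPS and 1.53% ± 0.0257 in co-culture. Neither these shares nor the order of FPKM below was corrected for the trends with length and GC. With those removed, the log2 fold change was 0.51 for Klf2, 0.33 for Klf4 and 0.25 for Klf6, against 1.25, 0.71 and -0.06 under TMM. Those of Klf9 and Klf10 were -0.87 and -0.74, against -1.0 and -0.82. The summed FPKM itself was 100.2 ± 0.677 and 89.29 ± 3.87, on a scale where the median of all genes tested on log2(FPKM + 0.1) was also lower, by a log2 fold change of -0.165.

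With LPS the order of FPKM was Klf6 (58.4), Klf16 (9.42), Klf2 (7.28), Klf10 (6.89), Klf7 (6.55), Klf13 (5.69), Klf9 (2.65), Klf4 (0.939), Klf3 (0.435) and Klf11 (0.335). The libraries of Klf2 and Klf10, and those of Klf10 and Klf7, overlapped there, and no other neighbours among the members did. In co-culture Klf2 was second (15.2), followed by Klf16 (8.47), Klf7 (4.59), Klf13 (3.94), Klf10 (3.46), Klf4 (1.36), Klf9 (1.17), Klf11 (0.398) and Klf3 (0.324). Klf13 and Klf10 overlapped, as did Klf11 and Klf3. Klf4 lay below Klf9 with LPS and above it in co-culture in every library.

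**Figure D3:**
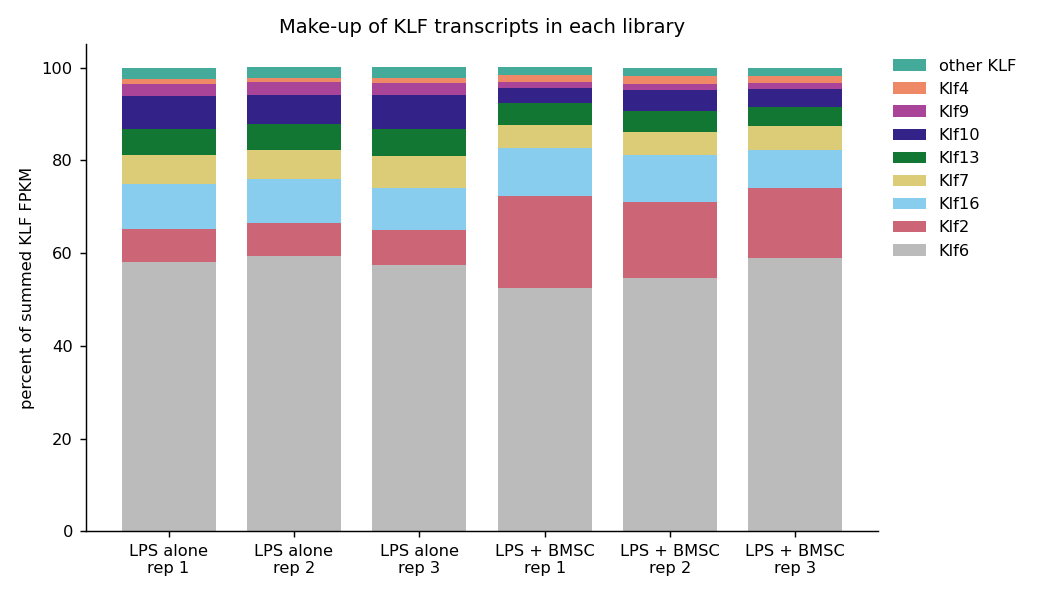
Share of each KLF in the FPKM summed over all 17 KLF rows (vertical axis, percent) in each library. Klf6 makes 52.5% to 59.3% of the bar throughout, and the Klf2 part is 7.09% to 7.53% with LPS and 15% to 19.9% in co-culture.

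Ratios of related members within a library do not depend on how libraries are scaled, though a trend with length or GC still enters them. The Klf10 to Klf11 ratio was 21.1, 18.5 and 22.2 with LPS and 7.99, 9.48 and 8.45 in co-culture, a 2.38-fold drop. The Klf9 to Klf16 ratio dropped from 0.27, 0.28 and 0.293 to 0.124, 0.13 and 0.163, and the Klf9 to Klf13 ratio from 0.46 to 0.469 down to 0.27 to 0.327. The Klf2 to Klf4 ratio was 7.29 to 8.48 with LPS and 10 to 13 in co-culture, so Klf2 gained more than Klf4 in these libraries. The Klf6 to Klf7 ratio was 8.38 to 9.33 and 10.3 to 11.3, and the Klf13 to Klf16 ratio 0.578 to 0.637 and 0.441 to 0.499. The direction of the Klf13 to Klf16 ratio turned with the corrections, the members' own log2 fold changes being -0.01 and -0.27 with the length trend removed and -0.31 and -0.50 with length and GC removed. That of Klf6 to Klf7 turned with the length trend alone removed (-0.04 and 0.04), not with length and GC removed (0.25 and 0.15). The other pairs kept their direction with length and GC removed, but some lay closer together. Klf2 and Klf4 were then at 0.51 and 0.33, against 1.25 and 0.71 under TMM. Klf9 and Klf16 were at -0.87 and -0.50, against -1.0 and 0.03. Klf13 was at -0.31 beside Klf9, and Klf10 and Klf11 were at -0.74 and 0.42. The groups did not overlap for any of the 6 uncorrected ratios. Each gave p = 0.1 in an exact two-sided permutation test, also after adjustment over the 6 pairs, which is the smallest p that 3 against 3 can give, so none could pass.

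**Figure D4:**
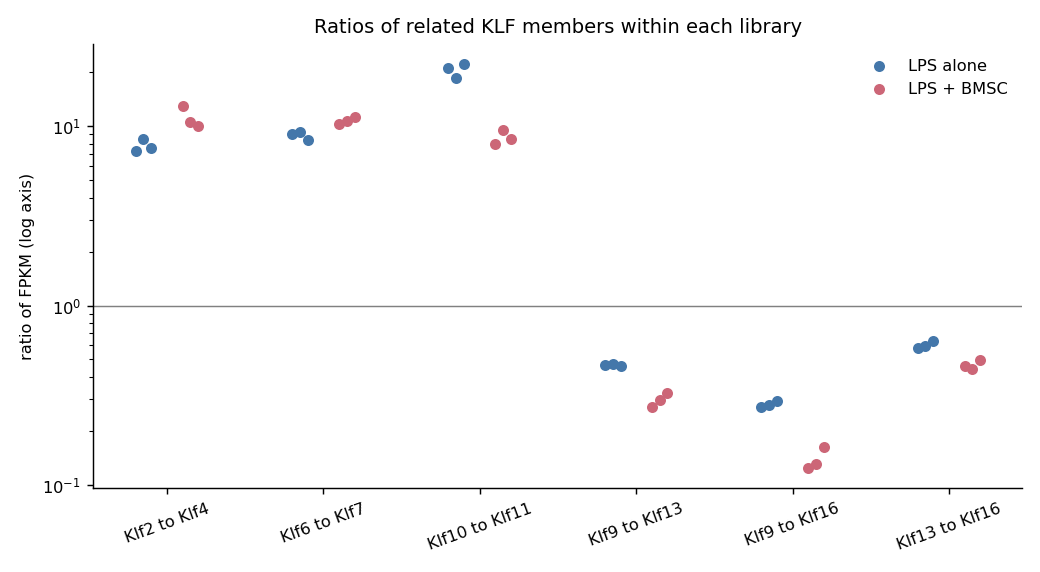
Ratio of the FPKM of 2 related members within each library (log axis) for 6 pairs, with the 3 LPS libraries in blue and the 3 co-culture libraries in red. The Klf10 to Klf11 ratio falls from 18.5 to 22.2 with LPS to 7.99 to 9.48 in co-culture, and the groups of every pair are apart.

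Of the 7 other KLF genes in the table only Klf8, a CtBP-binding repressor like Klf3, had enough reads to be tested. Klf8 was at 8.07, 7.19 and 7.85 CPM with LPS and 3.587, 3.995 and 4.106 CPM in co-culture, 1.98-fold lower without overlap (log2 -0.98, SE 0.12, adjusted p 3.68e-05 in edgeR's test, or -0.60 with the length and GC trends removed). Klf5, Klf14 and Klf17 had no read in any library, where 3 counts, the limit that a count of 0 allows, are 0.125 to 0.16 CPM on the same TMM scale. Klf12 and Klf15 had 1 read in each group. Klf1, the erythroid KLF, had 5 reads in all with LPS and 14 in co-culture, too few to test.

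The SP proteins carry the same kind of fingers and bind the GC box. Of 9 SP genes 4 could be tested, and all 4 were called lower in co-culture, against 38.0% of all tested genes. Their median log2 fold change was -1.04, against 0.001 for all tested genes. These genes, too, were chosen with earlier results of these data known, so the share is not a test. Sp1, the ubiquitous GC-box activator, was at 124.1 to 130.6 CPM with LPS and 68.74 to 75.45 CPM in co-culture (1.78-fold lower). Sp3 fell 2.38-fold (95.3 ± 3.79 against 40.14 ± 9.11 CPM, mean ± SD, n = 3 each), Sp4 2.99-fold (10.08 ± 0.289 against 3.37 ± 0.677 CPM) and Sp2 1.18-fold. Their adjusted p ranged from 1.65e-06 (Sp1) to 0.0425 (Sp2) in edgeR's test. All 4 were also called lower with the length and GC trends removed, against 4069 of 11072 genes tested there, and their median was -0.69. The log2 fold change of Sp1 was then -0.27, or -0.44 with the length trend alone removed, against -0.83 under TMM. With length and GC removed, Sp3 was at -0.805 and Sp4 at -1.05, against -1.25 and -1.58. Sp2 was at -0.58, against -0.24. The call of Sp2 was lost in 8 of the 16 other fits, among them DESeq2, the replicate block and leaving out any LPS library or co-culture replicate 1 or 3 (adjusted p 0.0571 to 0.117).

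Of 10 tested cofactors of the KLFs 3 rose and 4 fell, against 37.5% of all tested genes higher and 38.0% lower, and the median log2 fold change was -0.11. The acetyltransferases Kat2b and Ep300 fell 3.00-fold (49.87 ± 1.16 against 16.68 ± 3.98 CPM) and 2.33-fold (121.7 ± 3.44 against 52.33 ± 8.18 CPM). The SIN3 scaffolds went apart, Sin3a being 1.66-fold lower and Sin3b 1.86-fold higher (log2 -0.73 and 0.89, or -0.59 and 0.91 with the length and GC trends removed). Ctbp2, the partner of KLF3 and KLF8, was 1.26-fold higher (a call lost on library totals and on both FPKM scales, adjusted p 0.0754 to 0.0922), and Ctbp1 did not pass (log2 0.13, adjusted p 0.0592 in edgeR's test). Sap30, a subunit of the SIN3 complex, was higher (log2 0.46) but called lower with the length and GC trends removed (-0.39, adjusted p 0.000292 in edgeR's test). The deacetylase Hdac2 did not pass (-0.03) and was called higher with that correction (0.31, adjusted p 0.000101). Crebbp was lower (-0.29), called higher with the length trend alone removed (0.32, adjusted p 0.00243) and not called with length and GC removed (0.06, adjusted p 0.403). Of 5 tested ubiquitin ligases that act on KLF proteins, 2 were lower, near the 38.0% of all tested genes. Wwp1, which targets KLF2 and KLF5, fell 1.68-fold (log2 -0.75, and -0.15 with adjusted p 0.146 once length and GC were taken out), and Itch, which acts on KLF10, fell 1.89-fold (-0.92, then -0.24).

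Upstream of KLF2 and KLF4 in endothelium runs a kinase path from MEKK2 and MEKK3 through MEK5 and ERK5 to MEF2, which the CCM proteins hold back. Of 11 tested genes of this path 3 rose and 5 fell (median log2 fold change -0.21), against 37.5% and 38.0% of all tested genes. Under the length and GC offset 2 rose and 3 fell, against 3828 and 4069 of the 11072 genes tested there, and the median was -0.02. Mef2c fell 2.85-fold (79.42 ± 2.06 against 27.85 ± 3.54 CPM), and Map3k2 and Map3k3, the genes of MEKK2 and MEKK3, fell 2.55-fold and 2.37-fold. These 3 were also lower with the length and GC trends removed (log2 -0.64, -0.47 and -1.49). The CCM gene Krit1 was 2.32-fold lower, a call lost with that correction (log2 -0.21, adjusted p 0.0531 in edgeR's test). So was that of Mef2a (-0.83, then -0.02 with adjusted p 0.709). Mapk7, the gene of ERK5, did not pass (0.18, adjusted p 0.0648 in edgeR's test), and Hdac5, which represses MEF2, rose 1.78-fold.

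Genes of TGF-beta signalling, which induces KLF10 and KLF11, gave 2 rises and 5 falls among 7 tested, where 37.5% of all tested genes rose and 38.0% fell. Their median log2 fold change was -0.53, and -0.26 under the length and GC offset. The ligand Tgfb1 rose 1.91-fold (233.2 ± 2.03 against 446.5 ± 77.7 CPM), whereas the receptor Tgfbr1 fell 2.87-fold (33.84 ± 0.956 against 11.8 ± 1.17 CPM) and the signal transducer Smad3 2.13-fold (3.65 ± 0.183 against 1.72 ± 0.404 CPM). The inhibitor Smad7, which KLF10 is known to repress, was 1.36-fold higher (log2 0.44), a call lost with the length and GC trends removed (0.22, adjusted p 0.173 in edgeR's test).

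Among genes of the glucocorticoid response, 2 of 5 tested were higher and 3 lower (all tested genes, 37.5% and 38.0%). The list holds the receptor gene Nr3c1 beside genes that, like Klf9, respond to glucocorticoids. Tsc22d3, which encodes GILZ, rose 3.16-fold (7.06 ± 0.498 against 22.23 ± 4.52 CPM) and the clock gene Per1 1.52-fold. The receptor gene Nr3c1 fell 2.29-fold (76.09 ± 0.862 against 33.25 ± 6.59 CPM), the kinase Sgk1 2.00-fold and the chaperone Fkbp5 1.39-fold. All 5 kept their direction and call with the length and GC trends removed, but with the length trend alone removed the call of Fkbp5 was lost (log2 -0.01, adjusted p 0.865 in edgeR's test). Like the response genes Sgk1 and Fkbp5, and unlike Tsc22d3 and Per1, Klf9 was lower.

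Of 10 tested genes tied in earlier work to single KLFs 8 were higher, against 37.5% of all tested genes, and none was lower, with a median log2 fold change of 1.11. With the length and GC trends removed 8 were higher and 1 lower, against 3828 and 4069 of 11072 genes, and the median was 0.73. The list was chosen with earlier results of these data known, so its share of calls is not a test. The call of Bcl6, 1 of the 8 (log2 0.15), was lost in 9 of the 16 other fits (adjusted p 0.0593 to 0.685). Thbd, the anticoagulant receptor that KLF2 activates in endothelium, had 8 reads in all with LPS and 220 in co-culture, where it reached 3.43 to 4.27 CPM. F3, the tissue factor gene that KLF2 restrains there, was also higher, by 2.16-fold (1.45 ± 0.314 against 3.13 ± 0.402 CPM). Itgb7, an integrin that KLF2 activates in mouse T cells, rose 6.24-fold (35.84 ± 1.73 against 223.6 ± 35 CPM) and Ccr7 2.96-fold, at 1.92 CPM in co-culture. Lgals3, a gene that KLF3 represses in mouse cells, rose 2.16-fold. Ccl5, the KLF13 target in human T cells, was 1.56-fold higher (log2 0.64) but lower with the length and GC trends removed (-0.36, adjusted p 0.000791 in edgeR's test). Genes that a KLF activates and genes that it represses were thus both among those that rose.

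**Figure D5:**
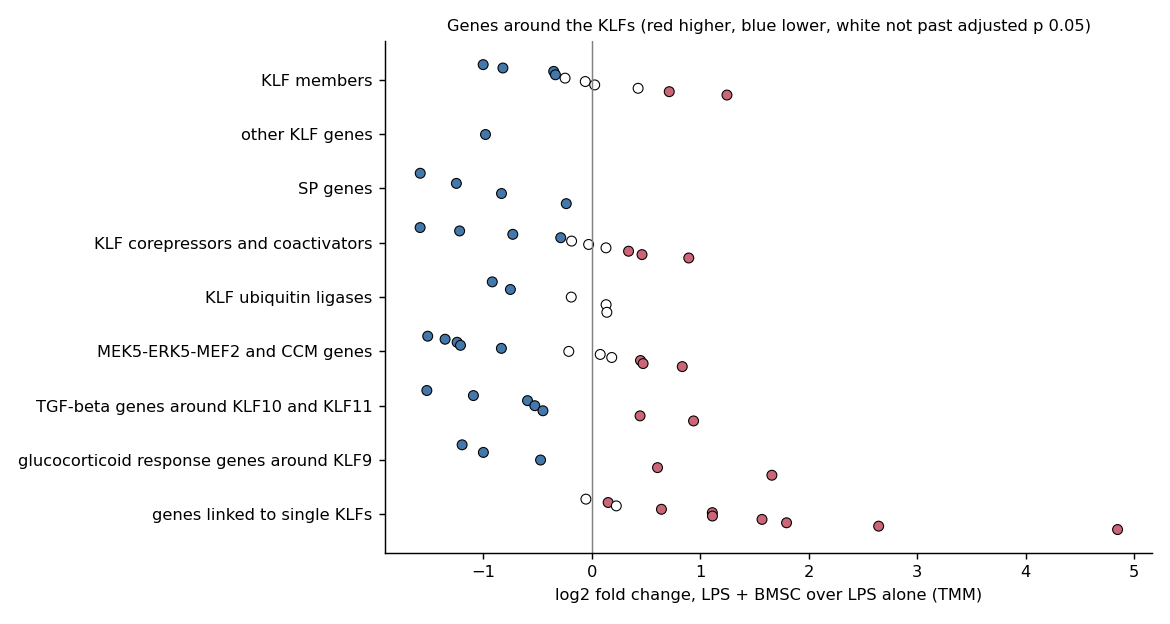
Log2 fold change (TMM, co-culture over LPS alone) of each tested gene of the KLF members and 8 related lists; red genes were called higher, blue lower, and white did not pass. The 4 SP genes all lie below 0, the members run from -1.0 to 1.25, and Thbd stands at 4.85.

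Over the 6 libraries, the 5 genes whose centred log2 CPM was closest to that of Klf2 were Asl, Prkcsh, Gys1, Grap and Napsa. The root-mean-square difference was 0.023 to 0.037. The 5 closest to Klf9 were Phf11d, Med12, Atl3, Zfp397 and Hps3, at 0.014 to 0.027. The groups differ for most genes, so such likeness mainly reflects a similar difference between the groups.

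In GRCm38 coordinates of GENCODE M21, Klf2 (ENSMUSG00000055148) lies on chromosome 8 from 72319033 to 72321656, Klf4 (ENSMUSG00000003032) on chromosome 4 from 55527143 to 55532466, Klf9 (ENSMUSG00000033863) on chromosome 19 from 23141226 to 23168134 and Klf10 (ENSMUSG00000037465) on chromosome 15 from 38291463 to 38300706. All 4 are protein coding there. No other annotated gene overlaps Klf2, Klf4 or Klf10, and only a microRNA gene lies within Klf9. Klf3, Klf7 and Klf13 overlap genes on the opposite strand, and the library protocol names no step that marks strand, so reads of such genes cannot be told apart. The one of these in the table, E030018B13Rik across from Klf13, had at most 5 counts in a library.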

How the data were processed

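Per the labels' protocols, poly(A) RNA was bead-captured, fragmented, primed at random and amplified by PCR; no molecular identifiers are named, so floors cover counting error only. The authors deposited 1 table with a whole, unnormalized read count and an FPKM per gene and library. The FPKM as deposited is the count over gene length and column total. HISAT2 2.0.5 and mm10 stand in the submitters' processing notes; the counter, the annotation and any use of strand are not given in the sources here. Only 517 start sites equal those of GENCODE M21, so positions were taken from M21 by identifier. The table also has 1 empty row.

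Counts were tested in edgeR 4.0.16 under R 4.3.3 (robust quasi-likelihood, TMM, default filter, group as the only term, Benjamini-Hochberg over 11103 genes), after the code was tested on simulated counts. Alternatives were RLE factors, library totals, DESeq2 1.42.0, limma 3.58.1 on log2(FPKM + 1) or log2(FPKM + 0.1) where FPKM averaged 1 or more, no filter, a minimum of 10 counts in each library, leaving out each library, a replicate block, and offsets from natural splines (5 degrees of freedom) on gene length, or on length and the GC content of the longest M21 transcript. Promoter windows are RefSeq's; protein sequences were not used here. Members, lists, tests and alternatives were chosen with earlier results of these data known. Named were all members, list genes called with at least a 2-fold change, and up to 4 others per list by smallest p. Named too were the 5 genes closest to the largest riser and to the largest faller. Outside this rule, Ctbp1, Crebbp, Hdac2, Mapk7 and Smad7 were named after their values were seen. For 1 list gene the values are not reported here.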

Additional observations from a re-analysis of the deposited data

How the results depend on the processing

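Of 502 repeats of a result under an alternative setting, 468 were rated the same. For single genes this meant keeping the direction and the side of the threshold, and for counts staying within 1.5 times. For the ratios only the direction was compared, because their p could not pass. Counts were compared without regard to which genes were called. With length and GC, the members called higher were Klf2, Klf6 and Klf7 rather than Klf2 and Klf4. The number of genes called was 7537 to 8509 in the fits without leaving a library out and 7756 to 8576 when each was left out. Library totals lowered the share of calls that were higher from 49.6% to 38.3%. Values that turned were those of Klf3 (0.29 with the length offset, 0.34 with length and GC), Klf6 (0.25 with length and GC), Klf7 (0.04 with length, 0.15 with length and GC) and Klf16 (-0.15 on library totals, -0.14 on log2(FPKM + 1), -0.16 on log2(FPKM + 0.1), -0.27 with length, -0.50 with length and GC, and -0.01 to 0.11 when each library was left out). With length and GC, the ubiquitin ligases gave 1 lower, the MEK5 path 3 lower, the TGF-beta genes 1 higher and the genes linked to single KLFs 1 lower. Of all 11072 genes tested there, 3828 were higher and 4069 lower. With length alone, the ligases gave 1 higher, the MEK5 path 5 higher and the linked genes 1 lower. In that fit 7928 of 11103 genes were called, 50.1% of them higher. TGF-beta genes gave 1 higher on library totals and on both FPKM scales. On both FPKM scales 4 linked genes were higher, and 1 was lower on log2(FPKM + 1). Of 9463 genes tested on these scales 7562 were called on log2(FPKM + 1) and 7537 on log2(FPKM + 0.1), 39.1% of them higher. Leaving out each library gave 0 to 1 ligases higher. The cause of these shifts was not tested. Klf3 and Klf11 fall below the FPKM minimum. Counts of 26 to 38 a library limit the precision for Klf11.

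With the replicate number as a block, 8217 genes, 2 members higher and 4 lower were called. Same-numbered libraries did not deviate together (correlations over tested genes -0.0416, -0.0239 and 0.0402), so the numbers were not taken as pairs.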
